A study of Sus scrofa with 220 samples.

Results

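The genes *APOA2* (ENSSSCG00000006355), *APOC3* (ENSSSCG00000015069), *FGL2* (ENSSSCG00000015413) and *HABP2* (ENSSSCG00000010639) encode secreted proteins, and they were described in single cells of pig embryos. The proteins of *APOA2*, *APOC3* and *HABP2* are best known as products of the liver. These 4 members, of 22840 gene entries measured, were chosen by their measured levels, which were high in hypoblast (HYPO) cells, and each matched 1 identifier by its symbol. All 4 passed the filter on low values, a TPM over 1 in at least 3 cells, as did 14721 entries in all. TPM is a read count scaled for gene length and for the total of the cell. Since the level in HYPO chose the members, their levels in HYPO against the other groups are given as a description with no test.

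The study sequenced 220 cells of embryos flushed from artificially inseminated crossbred Large White and Landrace sows, none with a genetic change or a treatment. The groups were 47 morula (M) cells, 24 inner cell mass (ICM) and 28 trophectoderm (TE) cells of the early blastocyst (EB), 25 epiblast (EPI) and 36 HYPO cells of the late blastocyst (LB), and 48 EPI and 12 HYPO cells of the spherical embryo (Sph). The TE of LB was lysed by immunosurgery, the EPI and HYPO of Sph were parted by hand, and no TE was collected at these stages. Cells were assigned to embryos by the letters in their identifiers, which gave 5 embryos for LB HYPO and 3 for Sph HYPO, and cells of 1 embryo are not independent. Counts per cell ran from 1012604 to 5696373, with a group median of 1660326 in LB HYPO, 1988462 in Sph HYPO and 1994384 in ICM.

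The hypoblast, or primitive endoderm, is the extraembryonic epithelium that forms from the ICM, lines the blastocoel and builds the yolk sac. The visceral endoderm and yolk sac that descend from it are known in mammals to make many proteins that the fetal and adult liver later secretes into plasma, among them apolipoproteins. Apolipoproteins coat lipid particles. *APOA2* encodes a main protein of high-density lipoprotein, and *APOC3* a protein of triglyceride-rich particles that slows their breakdown by lipoprotein lipase. *FGL2* encodes a fibrinogen-like protein, a prothrombinase at the cell surface that also acts as a secreted modulator of immune cells. *HABP2* encodes a plasma serine protease that binds hyaluronan and can activate factor VII.

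The cells labelled HYPO carried HYPO markers. All 7 matched genes of the HYPO list had counts in both HYPO groups, and their summed TPM per embryo was 856 to 3030 in LB HYPO and 1253 to 3428 in Sph HYPO, against 11.2 to 86.1 in LB EPI and 10.99 to 25.3 in Sph EPI. Of the 5 matched EPI markers, the summed TPM was 0 to 16.9 in LB HYPO and 0 to 174 in Sph HYPO. Immune cell markers were low in HYPO, with a summed TPM of at most 21.4 in LB and 4.46 in Sph, and *PTPRC* and *CSF1R* had no count. TE markers differed between the HYPO groups, from 1508 to 2511 summed TPM in LB and from 17302 to 43066 in Sph. They were not particular to TE, since in EPI the sum was 2980 to 5744 in LB and 2808 to 9001 in Sph. The paper also names *DAB2*, a gene of this list, among HYPO genes. The median over EB TE embryos was 42614, inside the Sph HYPO range. *KRT8* and *KRT18* make up most of that sum. *CDX2* had no count in either HYPO group, but its median in EB TE was also 0, with at most 8.65 TPM. It cannot tell HYPO from TE here. *GATA2* reached at most 4.89 TPM in LB HYPO and 0.0215 TPM in Sph HYPO, and *GATA3* reached 9.86 and 34.1 TPM. Their medians in EB TE were 107 and 94.7 TPM. One library went against its label: the cell E6-ER2, labelled EB TE, had 0.368 summed TPM of TE markers, against 2068 to 75348 in the other TE cells. It is also the single cell of its embryo sum. Without it, *APOA2* was over 1 TPM in 19 of 27 TE cells (70.4%, 95% Clopper-Pearson interval 49.8 to 86.2) with a median of 272 TPM over 9 embryos and the same lowest and highest embryo, and *APOC3* and *FGL2* in 5 of 27 each (18.52%, 6.3 to 38.1). The tests between ICM and TE are given with and without it.

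Transcripts of other plasma proteins of the liver were detected in part. Of 26 matched genes of a plasma protein list, 16 had counts in the 48 HYPO cells, among them *FETUB*, *RBP4* and *CFB*, and 10 had none, among them *ALB*, *AFP* and *TTR*, which encode albumin, alpha-fetoprotein and transthyretin. These 6 were picked out after their values were seen. A count in any cell was enough here, and the lowest of the 16 genes had 4 counts in all HYPO cells. The share of all entries with a count in HYPO was not computed, so 16 of 26 is a description only. The members are called here secreted protein genes high in HYPO.

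*APOA2* was the most abundant of the 4. In LB HYPO its mean TPM per embryo was 2536 in AL, 2110 in AM, 1358 in AN, 2051 in AO and 665 in AP. In Sph HYPO it was 9031 in C, 5963 in E and 2379 in F. The ranges of the stages overlapped only between F and AL. By the mean over embryos *APOA2* ranked 78 among all entries in LB HYPO, at 1744 ± 736 TPM (SD, n = 5), and 9 in Sph HYPO, at 5791 ± 3329 TPM (SD, n = 3). Every HYPO cell had it, 36 of 36 in LB and 12 of 12 in Sph, and the lowest cell was at 499 TPM in LB and 1629 TPM in Sph.

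Outside HYPO, *APOA2* was present already in the early stages. It was over 1 TPM in 19 of 47 M cells (40.4%, 95% Clopper-Pearson interval 26.4 to 55.7), in 20 of 24 ICM cells (83.3%, 62.6 to 95.3) and in 20 of 28 TE cells (71.4%, 51.3 to 86.8). These intervals cover counting error only. The mean TPM per embryo had its lowest, median and highest value at 0, 22.5 and 126 in M, at 0.176, 501 and 1473 in ICM, and at 13.6, 237 and 378 in TE. In LB EPI it was over 1 TPM in 8 of 25 cells, and in Sph EPI in 1 of 48 cells, at 2.32 TPM. By the median embryo the order was Sph HYPO, LB HYPO, ICM, TE, M, LB EPI and Sph EPI, and the embryo ranges of each group and the next in this order overlapped.

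*APOC3* was nearly as high as *APOA2* in LB HYPO and lower in Sph HYPO. In LB HYPO its mean TPM was 1080 in AL, 2128 in AM, 644 in AN, 2080 in AO and 616 in AP, with a mean of 1310 ± 748 (SD, n = 5). In Sph HYPO it was 1679 in C, 254 in E and 247 in F, with a mean of 727 ± 825 (SD, n = 3). Embryo C thus lay inside the LB range and E and F below it. All 36 LB HYPO cells and 11 of 12 Sph HYPO cells had *APOC3* over 1 TPM. In Sph HYPO the cells ran from 0 to 2502 TPM, with a median of 254.

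In contrast to *APOA2*, *APOC3* had no count in any of the 47 M cells, a result compatible with shares up to 6.38%. It was over 1 TPM in 16 of 24 ICM cells (66.7%, 44.7 to 84.4), and the embryo means in ICM ran from 0 to 595 TPM with a median of 84.4. In TE 5 of 28 cells passed 1 TPM, none above 4.95 TPM. In Sph EPI 4 of 48 cells did, none above 2.13 TPM. The order by the median embryo was LB HYPO, Sph HYPO, ICM, LB EPI, Sph EPI, and then M and TE with a median of 0. The ranges of neighbouring groups overlapped except between Sph EPI and M, where the difference was of 1 count in each Sph EPI embryo.

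*FGL2* was lower and more uneven. In LB HYPO the mean TPM was 357 in AL, which is a single cell, and 43.96 in AM, 13.0 in AN, 26.3 in AO and 72.8 in AP. In Sph HYPO it was 69.4 in C, 220 in E and 268 in F. All 12 Sph HYPO cells had *FGL2*, from 38.7 to 755 TPM, whereas 21 of 36 LB HYPO cells did (58.3%, 40.8 to 74.5). The LB cells with it were 1 of 1 in AL, 9 of 14 in AM, 1 of 3 in AN, 8 of 16 in AO and 2 of 2 in AP.

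*FGL2* also had a second site of expression, in the morula. It was over 1 TPM in 23 of 47 M cells (48.9%, 34.1 to 63.9), up to 250 TPM, and all 8 M embryos had counts, with embryo means of 1.69 to 53.7 TPM. In ICM 1 of 24 cells passed 1 TPM, at 1.11 TPM, and in TE 5 of 28 cells did, up to 28.0 TPM. No EPI cell passed 1 TPM, of 25 in LB and 48 in Sph, so that shares up to 12% and 6.25% are allowed. The order by the median embryo was Sph HYPO, LB HYPO, M, TE and then Sph EPI, ICM and LB EPI at or near 0, and the ranges of neighbours overlapped throughout.

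*HABP2* was the member closest to being seen in HYPO cells alone. Its mean TPM in LB HYPO was 206 in AL, 81.3 in AM, 103 in AN, 64.5 in AO and 127 in AP, and in Sph HYPO 91.4 in C, 64.4 in E and 90.3 in F. The means were 117 ± 55.4 (SD, n = 5) and 82.0 ± 15.3 (SD, n = 3), and the stages overlapped. It was over 1 TPM in 32 of 36 LB HYPO cells (88.9%, 73.9 to 96.9) and in 12 of 12 Sph HYPO cells. In the other 5 groups 1 of 172 cells passed 1 TPM, an LB EPI cell of embryo AQ at 1.30 TPM. No neighbours in the order overlapped at the step from Sph HYPO to LB EPI, and below that step the medians were at or near 0.

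**Figure D1:**
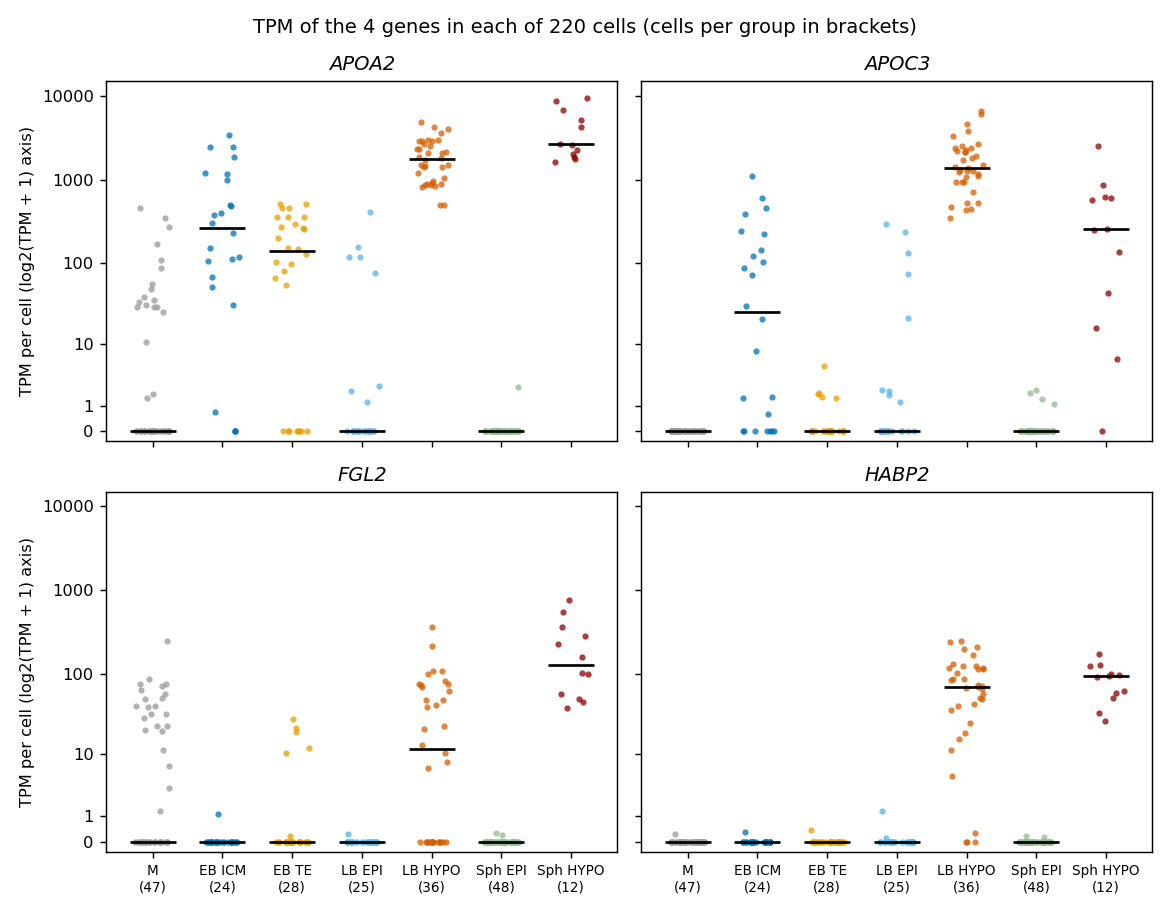
TPM of *APOA2*, *APOC3*, *FGL2* and *HABP2* in each of the 220 cells (y axis, spaced as log2(TPM + 1)) by group (x axis, number of cells in brackets), with black bars for the group medians. *APOA2* lies at 499 TPM or more, to 3 digits, in every HYPO cell and is spread over M, ICM and TE, *APOC3* is at 0 in all M cells, *FGL2* is present in M and HYPO and nearly absent from ICM, and *HABP2* is near 0 outside HYPO.

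The next question was whether the members changed between the hypoblast of LB and of Sph, a comparison within HYPO that the choice of members did not use. The paper inferred sex from Y chromosome genes, and lists most LB HYPO cells as female and all Sph HYPO cells as male. The way of isolation differed as well, so stage, sex and isolation cannot be told apart in this comparison. Counts were summed per embryo and tested with edgeR across all 14721 genes, and a gene was called at an adjusted p under 0.05. None of the 4 members was called, where 24 genes, 0.163% of those tested, were called in either direction. At an unadjusted p under 0.05 edgeR gave 1402 genes, among them 1 member, *APOA2*. DESeq2 called 342 genes and none of the members.

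*APOA2* had the largest fitted difference relative to its error, at -1.82 on the log2 scale for LB over Sph (edgeR, standard error 0.44, adjusted p = 0.179). Without embryo F, the lowest of the 3 Sph embryos, it was called at -2.18 on the same scale (edgeR, adjusted p = 0.0381), the only one of 17 alternatives to do so. *FGL2* was at -1.13 (standard error 0.83, adjusted p = 0.638 from edgeR), and without the single LB cell of embryo AL at -2.41. *APOC3* was at 0.84 (standard error 0.70, adjusted p = 0.713 from edgeR), and without embryo C of Sph at 2.36. *HABP2* was at 0.33 (edgeR, standard error 0.55, adjusted p = 0.967). Its sign turned negative in limma on log2(TPM + 1) and within the last 4 library pools. With 5 against 3 embryos, differences of this size were not told apart from the spread between embryos.

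KRT8 and KRT18, keratins of the TE marker list, moved with stage in the same sums. The log2 fold change of LB over Sph was -3.92 for KRT8 (adjusted p = 2.85e-06 from edgeR) and -4.31 for KRT18 (adjusted p = 0.000978 from edgeR). In the model over all 7 groups KRT8 was not called (adjusted p = 0.0785 from edgeR). Their part in the members' values was not tested.

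**Figure D2:**
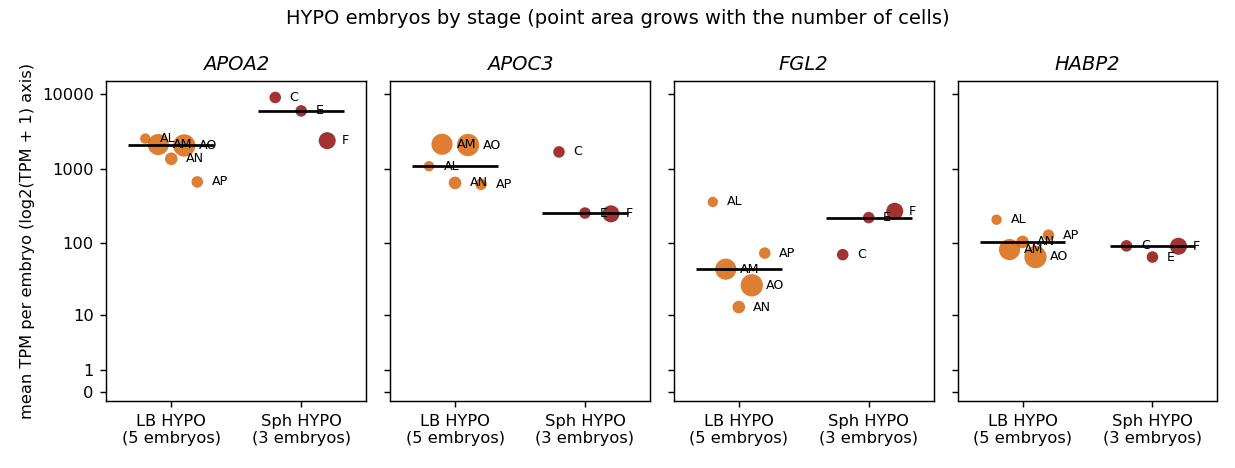
Mean TPM per embryo of the 4 genes (y axis, spaced as log2(TPM + 1)) in the HYPO of 5 LB and 3 Sph embryos (x axis), with embryo letters beside the points, point area growing with the number of cells and black bars for medians. Sph embryos C and E lie above all LB embryos for *APOA2*, E and F lie below all LB embryos for *APOC3*, and the stages overlap for *FGL2* and *HABP2*.

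The balance of the 2 apolipoprotein genes differed more evenly between the stages than either gene did. This was noticed after the values were seen and is a description. The ratio of *APOC3* to *APOA2* in mean TPM was 0.426 in AL, 1.01 in AM, 0.474 in AN, 1.01 in AO and 0.927 in AP of LB HYPO. It was 0.186 in C, 0.0425 in E and 0.104 in F of Sph HYPO, so the stages did not overlap. Sex and isolation differed between these groups too, as given above. *APOC3* exceeded *APOA2* in 15 of 36 LB HYPO cells and in 0 of 12 Sph HYPO cells. In ICM, *APOC3* exceeded *APOA2* in 4 of 24 cells.

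Over single cells the 2 genes also varied together. Pearson's r of log2(TPM + 1) was 0.54 over 36 LB HYPO cells (Spearman's rho 0.51), 0.44 over 12 Sph HYPO cells (rho 0.47) and 0.52 over 24 ICM cells (rho 0.56). These cells share embryos and library pools, and no test was made. The other pairs of members ran from -0.10 to 0.26 in LB HYPO and from -0.20 to 0.42 in Sph HYPO. All 4 members were over 1 TPM together in 18 of 36 LB HYPO cells and 11 of 12 Sph HYPO cells, and in none of the 24 ICM or 25 LB EPI cells.

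**Figure D3:**
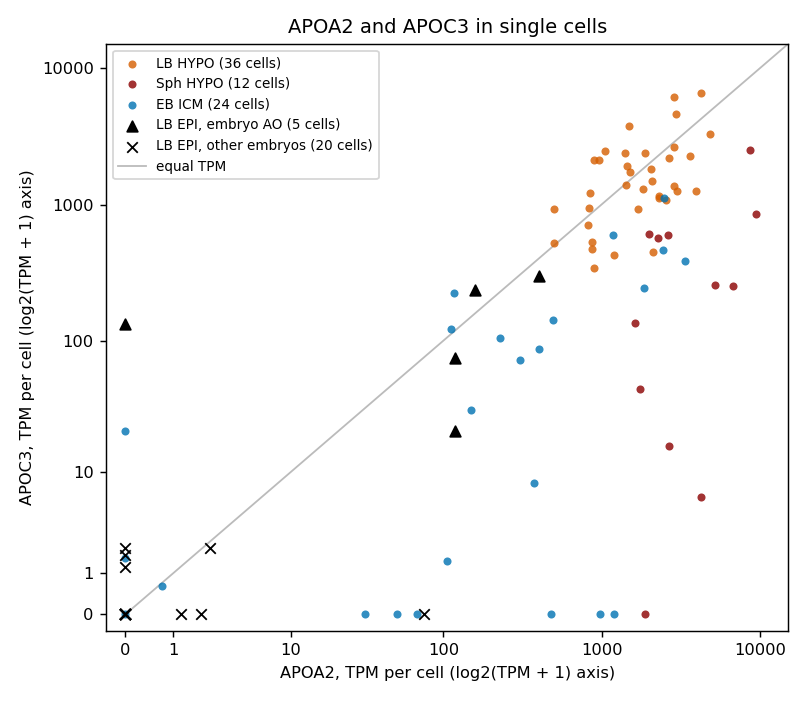
*APOC3* (y axis) against *APOA2* (x axis) in TPM per cell, both spaced as log2(TPM + 1), for HYPO and ICM cells as coloured points and LB EPI cells as black marks, with a grey line at equal TPM. LB HYPO cells lie on both sides of the line, all 12 Sph HYPO cells lie below it, and the 5 EPI cells of embryo AO stand apart from the 20 of other embryos.

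In EB, the ICM and TE were compared in 7 and 10 embryo sums. The paper lists most ICM cells as male and most TE cells as female, and sex was not in the main fit. One member of 4, *APOC3*, was called, where 111 genes, 0.754% of those tested, were called in either direction. *APOC3* had 2689 counts in ICM and 7 in TE, 8.72 on the log2 scale for ICM over TE (edgeR, standard error 1.67, adjusted p = 0.0128). In ICM its embryo means were 198 TPM in AA, 222 in AC, 595 in AD, 4.08 in AE, 5.80 in AF, 84.4 in AG and 0 in AI, whereas 8 of 10 TE embryos had no count. Pairing ICM and TE sums by embryo as a block gave 11.19 on that scale but no call (edgeR, adjusted p = 0.230). The call was also lost within the first and the last 4 pools (adjusted p = 0.206 and 0.181 from edgeR), with sums of at least 2 cells (adjusted p = 0.0560 from edgeR) and in limma (adjusted p = 0.0839). Without the cell E6-ER2 it was kept (adjusted p = 0.00979 from edgeR).

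*APOA2* was not called between ICM and TE, at 1.499 on the log2 scale (edgeR, standard error 0.82, adjusted p = 0.384), and at 1.40 without E6-ER2. Its ICM embryos were spread widely. The 4 cells of embryo AF held 1 count of *APOA2* in all, whereas embryo AC held 4783 in 6 cells. In TE of the same embryo AF, *APOA2* was at 272 TPM in 1 cell. *FGL2* had 3 counts in ICM and 286 in TE, a ratio of TE to ICM of 85.3 in pooled CPM (counting interval 29.2 to 414), with adjusted p = 0.114 from edgeR. Without E6-ER2 the ratio was 90.3 (30.9 to 438) and the adjusted p 0.123 from edgeR. DESeq2 (adjusted p = 0.0460) and the edgeR model over all 7 groups (adjusted p = 0.00833) called it. *HABP2* had 1 count in each and no fold is given.

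Between M and ICM, 8 and 7 embryo sums were compared, and the ICM sums are those of the comparison above. Of the 4 members 2 were called, *FGL2* and *APOC3*, in opposite directions, where 361 genes, 2.45% of those tested, were called in either direction. *FGL2* was higher in M, with 3637 counts against 3, a ratio of 632 in pooled CPM (counting interval 216 to 3065, adjusted p = 0.00124 from edgeR). Every M embryo had *FGL2* counts and 1 of 7 ICM embryos did. *APOC3* was higher in ICM, with 2689 counts against 0 (adjusted p = 0.00567 from edgeR). In pooled CPM it was at least 1719-fold higher, taking 3 counts over the M group as the floor. That bound does not hold for each embryo, since ICM embryo AI had 0 counts, AE 8 and AF 19. Within the first and the last 4 pools neither call was kept, with adjusted p = 0.0958 and 0.0730 for *FGL2* and 0.0601 and 0.0512 for *APOC3* from edgeR. limma did not call *APOC3* either (adjusted p = 0.0580).

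*APOA2* lay on the other side of the threshold. For M over ICM it was at -3.84 on the log2 scale (edgeR, standard error 1.14, adjusted p = 0.0783). The 4 of 25 alternatives that called it were DESeq2, limma, the model over all 7 groups and the fit without ICM embryo AF (adjusted p = 0.0347 from edgeR). *HABP2* had 1 count in each group. With totals of 103522405 counts in M and 53980675 in ICM, a difference of *HABP2* was not detectable at this depth.

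In LB EPI, 1 embryo held nearly all counts of the apolipoprotein members. *APOA2* had 787 counts in the 5 cells of embryo AO, 25 in AP, 2 in AQ and 0 in AN. *APOC3* had 781 in AO, 4 in AQ and 0 in AN and AP. All 5 AO cells had *APOC3*, at 21.2 to 299 TPM, and 4 of 5 had *APOA2*, at up to 405 TPM. The same cells had 2 counts of *FGL2* and 1 of *HABP2*.

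The EPI of AO was set beside the HYPO of the same embryo. As a share of the CPM in AO HYPO, AO EPI had 10.4% of *APOA2*, 8.61% of *APOC3*, 0.446% of *FGL2* and 0.0703% of *HABP2*. Of the HYPO markers and regulators, *PDGFRA* was at 26.95%, *GATA6* at 15.0% and *FN1*, the marker with the most counts, at 5.66%, while *GATA4* and *HNF4A* had no count. The lipoprotein genes *APOM*, *APOE* and *MTTP* were at 40.6%, 17.98% and 3.78%. The shares differed between these genes, and not all of the genes were particular to the EPI of AO. *GATA6* was at 5.91 TPM in AP EPI against 2.22 in AO EPI. *APOE* was at 23.2 TPM in AP EPI and 38.2 in AQ EPI against 118 in AO EPI. *MTTP* was at 2.47 TPM in AP EPI against 4.47 in AO EPI. *PDGFRA* and *APOM*, at 11.4 and 30.2 TPM in AO EPI, were at no more than 0.995 and 0.550 TPM in the other EPI embryos. The summed TPM of HYPO markers was 86.1 in AO EPI, against 11.2 to 29.1 in the EPI of the other 3 embryos, and that of EPI markers was 458, against 406 to 1056. The part of RNA from HYPO cells in these values was not tested.

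Genes that work beside the members were taken from 4 lists, of lipoprotein genes, other plasma proteins, clotting and hyaluronan genes, and transcription factors of liver and endoderm. Between LB EPI and LB HYPO, 283 genes, 1.92% of those tested, were called, and between Sph EPI and Sph HYPO 167 genes, 1.13%. The members were chosen on these contrasts and were left out of the counts. The lists were drawn up with earlier results of these data known. Their counts and medians are thus a description beside the values over all genes, and no enrichment is read from them. The paper lists most LB HYPO cells as female, and LB EPI cells as near equal in sex. It lists most Sph EPI cells and all Sph HYPO cells as male. Sex was not in the main fits. The calls below are those of edgeR. DESeq2 called more genes of the 4 lists together, 15 in LB and 14 in Sph. It also called many more of all genes than edgeR, in counts given in the last section, so these list counts are not set against the shares above. Of its LB list calls, *VLDLR*, *HAS2* and *NR5A2* had more counts in EPI than in HYPO.

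Of 42 lipoprotein genes listed, 24 matched and 18 were tested. In LB, 2 of 18 were higher in HYPO, 0 in EPI and 16 were not called, with a median log2 fold change of EPI over HYPO of -1.03 against 0 over all genes. The 2 were *MTTP*, which loads lipid onto nascent lipoproteins, at -6.00 (standard error 1.328, adjusted p = 0.0360 from edgeR), and *SAR1B*, needed to export them from the endoplasmic reticulum, at -1.96 (standard error 0.44, adjusted p = 0.0403 from edgeR). Both calls were lost with the embryo as a block (adjusted p = 0.112 and 0.618 from edgeR), and *SAR1B* in each fit that left out an embryo. *MTTP* was lost in 6 of those 9 fits, all but those without EPI embryos AN, AO and AQ. It was also lost without the EPI cell AP-ER2, whose embryo is less certain from its identifier.

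In Sph, 2 of 18 were higher in HYPO, and the median was -0.67 against 0.57 over all genes, so values in this comparison are read against that shift. *APOM*, an apolipoprotein of high-density lipoprotein, was at -10.36 (standard error 1.59, adjusted p = 0.0122 from edgeR), with 30 counts in EPI and 5317 in HYPO. *APOE*, a ligand of lipoprotein receptors, was at -2.87 (standard error 0.48, adjusted p = 0.0177 from edgeR), a call that did not hold with the embryo as a block (adjusted p = 0.0974 from edgeR). Both lost it without EPI embryo E. *APOE* reached 772 TPM in the median Sph HYPO embryo and 576 in LB HYPO, and *APOM* 493 and 132. *MTTP* was at 119 and 97.1 TPM. *SCARB1*, a receptor for high-density lipoprotein, was at 116 and 381 TPM. It was not called by edgeR in either stage, while limma called it in both and DESeq2 in LB.

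The lipoprotein genes next to the members in function were not all present. *APOB*, the core protein of the particles that carry *APOC3*, had no count in the 48 HYPO cells. *APOA1*, the main protein of high-density lipoprotein beside *APOA2*, was low, with 204 counts in all HYPO cells and at most 9.14 TPM in an embryo. In the RefSeq annotation of Sscrofa11.1, *APOA1* is the direct neighbour of *APOC3* on one side and *APOA4* on the other. The median TPM in LB HYPO was 2.73 for *APOA1* and 1080 for *APOC3*. *APOA4* could not be matched to an entry by its symbol and was not analysed here.

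Of the 15 plasma protein genes tested, none was called in LB, Sph or between the HYPO stages by edgeR. *FETUB*, a protease inhibitor of the cystatin family, had the highest TPM summed over HYPO cells, most of which are LB cells, at 53.0 to 233 TPM in LB HYPO and 0 to 9.19 TPM in Sph HYPO. *RBP4*, the plasma carrier of retinol, was at 0 to 2.96 TPM and 24.8 to 281 TPM, and *CFB*, complement factor B, at 0 to 0.655 TPM and 37.7 to 88.0 TPM. In Sph HYPO *RBP4*, *CFB* and *SERPING1*, the C1 inhibitor, had the higher medians, 61.2, 38.7 and 23.5 TPM, and that of *FETUB* was 0. The median of *SERPING1* was higher in EPI than in HYPO at both stages, at 65.0 against 2.38 TPM in LB and 39.3 against 23.5 TPM in Sph. The log2 fold changes of LB over Sph, 5.25 for *FETUB*, -7.69 for *RBP4* and -8.22 for *CFB*, did not pass the threshold in edgeR (adjusted p = 0.414, 0.222 and 0.0814), while DESeq2 called all 3. In edgeR *FETUB* was also called without Sph embryo F, and *RBP4* without LB embryo AM.

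Of the 17 clotting and hyaluronan genes tested, edgeR called none in LB and 1 in Sph, *HAPLN1*, which links hyaluronan to proteoglycans. In LB, DESeq2 also called *HAPLN1* and *CD44*, with more counts in HYPO, and *HAS2*, with more in EPI, 760 against 89. In Sph it also called *SERPINE2* and *F2*, both with the higher median TPM in HYPO. *HAPLN1* had 3 counts in Sph EPI and 20132 in Sph HYPO, a ratio of 30280 in pooled CPM (counting interval 10361 to 146830, adjusted p = 8.96e-05 from edgeR). All 17 alternatives called *HAPLN1* in Sph. It was at 252 to 589 TPM in Sph HYPO and 4.24 to 111 TPM in LB HYPO, in 12 of 12 and 14 of 36 cells. *SERPINE2*, an inhibitor of thrombin and plasminogen activators, was at 103 to 767 TPM in Sph HYPO and 63.6 to 209 TPM in LB HYPO. *PLAU*, the urokinase, reached 1054 TPM in 1 LB HYPO embryo and had a median of 0.362 TPM over the 5 LB embryos. Thrombin itself, *F2*, was at no more than 18.8 TPM in a HYPO embryo, and the fibrinogen chain gene *FGB* at no more than 1.35 TPM.

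Of the 16 regulators tested, edgeR called 1 in LB and none in Sph. *HNF4A*, a nuclear receptor that drives apolipoprotein genes in the liver, had no count in 25 LB EPI cells and 3346 in LB HYPO, at least 873-fold higher (adjusted p = 0.00541 from edgeR). The block by embryo ended the call (adjusted p = 0.137 from edgeR), as did limma, the model over all 7 groups and the last 4 pools (adjusted p = 0.0894 from edgeR). *HNF4A* was at 8.61 to 105 TPM in LB HYPO and 0 to 70.2 TPM in Sph HYPO. *GATA6*, *GATA4* and *FOXA2*, endoderm factors, had medians in LB HYPO of 26.9, 7.89 and 0 TPM, and in Sph HYPO of 15.0, 10.19 and 10.4 TPM. DESeq2 called *GATA6* and *GATA4* in LB, and *GATA4*, *FOXA2* and *HNF4A* in Sph. *CEBPA*, a factor of mature hepatocytes, had no count in HYPO cells.

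Of the 4 lists, between M and ICM, *APOE*, *CIDEB*, *HNF4A* and *SERPINE2* were higher in ICM and *SOAT1* and *GATA6* in M. Of these, *SERPINE2* (adjusted p = 0.00094 from edgeR) and *GATA6* (adjusted p = 0.00981 from edgeR) were called under 23 and 22 of 25 alternatives, and the other 4 under 8 or 9 of 24 or 25. Between LB HYPO and Sph HYPO none of the genes of the 4 lists was called by edgeR. DESeq2 called 5, among the larger number of genes that it called in all, given above.

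**Figure D4:**
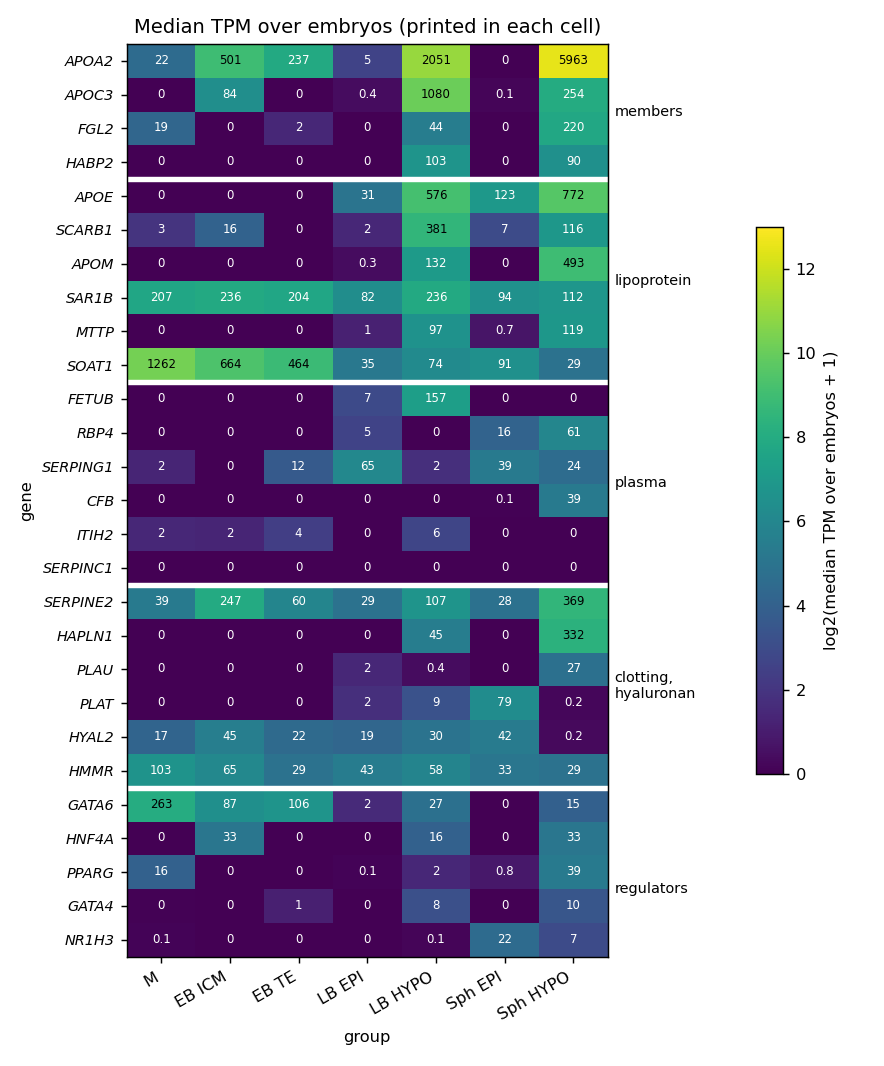
Median TPM over embryos of the 4 members and of up to 6 tested genes of each list, those with the highest summed TPM in HYPO, (y axis) in the 7 groups (x axis), with colour for log2(TPM + 1) and the TPM printed in each cell. In LB HYPO and Sph HYPO the lipoprotein genes *APOE*, *APOM* and *MTTP* have medians of 97 TPM or more, and of the 6 plasma protein genes shown *FETUB* is above 50 TPM in LB HYPO and *RBP4* in Sph HYPO.

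For each member the 5 genes with a symbol whose log2(CPM + 1) was most alike over the 41 embryo sums were named, by Pearson's r. The points share embryos and pools, and r is a description. The sums span all 7 groups, and the members were chosen for high levels in HYPO. A high r between genes high in HYPO thus follows in part from that choice. *APOC3* was most like *GJB1*, a gap junction protein of hepatocytes (r = 0.90), followed by *CDH2*, *ST6GALNAC3*, *MTTP* and *PECAM1* (0.84 to 0.89). *HABP2* was most like *NID2*, a basement membrane protein (r = 0.94), followed by *ST3GAL1*, *HAPLN1*, *APOA1* and *MTTP* (0.91 to 0.93). *APOA2* was most like *GJB1* (r = 0.75) and *APOC3* (0.74), then *ABRACL*, *CDA* and *SLC7A9* (0.67 to 0.68). *FGL2* was most like *HABP2* (r = 0.70), then *NAALAD2*, *HAPLN1*, *GPX6* and *CYP26A1* (0.65 to 0.69).

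*GJB1* had a median of 103 TPM in LB HYPO, 54.4 TPM in Sph HYPO and 8.90 TPM in ICM, of 0.258 TPM in LB EPI, and of 0 in M, TE and Sph EPI. *NID2* was at 0 in the median embryo of every group other than HYPO, at 66.1 TPM in LB HYPO and 32.9 TPM in Sph HYPO. Among the members, r was highest between *APOC3* and *HABP2*, at 0.80, and lowest between *APOC3* and *FGL2*, at 0.41. Over the 36 LB HYPO cells alone, r of log2(TPM + 1) was 0.05 and 0.26 for the same pairs, in that order.

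Reads of *FGL2* may be hard to assign, since in RefSeq it lies within the span of *CCDC146*, and the library kit does not mark strand. The entry for *CCDC146* had a median of 0 TPM in all 7 groups. *HABP2* overlaps *NRAP* at its end, and *NRAP* was not analysed here.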

How the data were processed

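Single cells were picked by hand and made into Smart-seq2 libraries with a Nextera XT kit. The authors trimmed the reads, aligned them with HISAT2 2.1.0 to the pig genome (Sscrofa 10.2), and counted unique reads per Ensembl gene with HTSeq. The authors deposited, for each cell, unnormalised counts of genes and also TPM values. Their own quality filter on depth and mitochondrial reads came first. No doublet caller was run. No 2 cells had identical counts.

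Groups came from the labels, and embryos from the letters of the cell identifiers. Of the cells, 1 M cell has no embryo and enters no sum. Counts were summed per embryo and group, giving 41 sums of 1 to 19 cells, 6 of them of 1 cell. A gene entered the tests where 3 or more cells exceeded 1 TPM. The tests used edgeR 4.0.16 (TMM, glmQLFit, glmQLFTest) under R 4.3.3, with Benjamini-Hochberg adjustment over all 14721 genes. The study tested single cells with another tool. A standard error is the log2 fold change divided by the square root of F. DESeq2 1.42.0 and limma 3.58.1 were alternatives. Intervals (Clopper-Pearson for shares, Poisson for ratios, 95%) and limits for 0 cells (3 over the number of cells) came from scipy 1.17.1. The edgeR step was tested on simulated data.

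Sums of the same embryo come from the same animal, so ICM and TE, or EPI and HYPO, are paired for 7, 3 and 3 embryos. Over 8902 genes, the median correlation of residuals of such pairs was 0.05 in EB, 0.02 in LB and 0.07 in Sph, against -0.01, -0.02 and -0.04 between different embryos. The fit with the embryo as a block is given where it changes a call. The embryos came from several sows, not named per embryo, so p-values measure the spread between these embryos. The library pools (8) were split into the first 4 and the last 4 as an alternative.

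The members and lists were chosen with earlier results of these data known. Genes were named as the members, as genes of the 4 lists that were called or among the 6 highest in HYPO, and as the 5 most alike to each member. Some genes outside this rule (*ALB*, *AFP*, *TTR*, *APOB*, *APOA1*, *VLDLR*, *F2*, *FGB*, *FOXA2*, *NR5A2*, *CEBPA*, *CD44*, *HAS2* and markers) were chosen after their values were seen. Symbols came from a table of Ensembl names that covers 75.3% of the counts. Some items are not reported here. No coordinates are given, since the annotation at hand is of another build.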

Additional observations from a re-analysis of the deposited data

Results flagged for a closer look

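In groups of 4 to 10 embryos, the highest or lowest embryo was compared with its neighbour by Dixon's criterion on log2(CPM + 1), for the 15 combinations of member and group with over 3 counts. Chance alone would pick about 1 in 20 groups, and 4 embryos stood apart.

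In LB EPI, embryo AO was at 63.4 CPM of *APOC3*, while the next of the 4 embryos was at 0.213 CPM. Its 5 cells all had the transcript, and the EPI of the same embryo had the highest summed HYPO markers of the 4, 86.1 TPM.

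In TE, embryo AH was at 0.80 CPM of *APOC3*, which rests on 4 counts in 2 of its 3 cells, and the next of the 10 embryos was at 0.16 CPM. Embryo AD was the lowest of the 10 TE embryos for *APOA2*, at 3.80 CPM against 34.9 CPM in the next, and 1 of its 4 cells was over 1 TPM.

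In M, embryo V, with 2 cells, was the lowest of 8 for *FGL2*, at 3.09 CPM against 18.3 CPM in the next. Without it *FGL2* stayed called between M and ICM (adjusted p = 0.000779 from edgeR).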

How the results depend on the processing

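Of the alternative values, 379 kept their direction and side of the threshold or their size, 104 counts or shares moved, 10 calls were lost, 7 were gained and 2 signs turned. The cause was not tested.

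Between LB HYPO and Sph HYPO, 342 genes were called by DESeq2, 37 in the first 4 pools and 39 in the last 4, and of the 4 lists 5, 1 and 1. *HABP2* turned to -0.38 in limma and -0.19 in the last 4 pools. Leaving out 1 embryo gave 17 to 110 genes and 0 to 1 list genes, with *APOA2* from -2.18 to -1.37, *APOC3* from 0.44 to 2.36, *FGL2* from -2.41 to -0.70 and *HABP2* from 0.09 to 0.50.

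Between ICM and TE, 457 genes were called by DESeq2, 31 with filterByExpr, 226 by limma, 865 with all 7 groups, 39 and 9 in the first and last pools, and 184 without E6-ER2. List genes called were 6 by DESeq2, 9 with all 7 groups and 0 with filterByExpr or in either set of pools. *APOC3* lost its call at 3.77 in limma, 7.85 with sums of at least 2 cells, and 7.80 and 9.86 in the first and last pools. For *FGL2*, DESeq2 gave adjusted p = 0.0460 and all 7 groups in edgeR 0.00833. Leaving out 1 embryo gave 58 to 184 genes, 0 to 1 list genes, *APOA2* from 1.05 to 1.72, *APOC3* from 7.88 to 10.12 and adjusted p of *FGL2* from 0.121 to 0.178 (edgeR).

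Between M and ICM, 1216 genes were called by DESeq2, 666 by limma, 38 and 132 in the first and last pools, with 0 and 2 list genes in the pools. *APOA2* was called at -3.88 by DESeq2, -5.13 by limma and -3.76 with all 7 groups. *APOC3* was lost in limma (adjusted p = 0.0580) and in the pools (edgeR, adjusted p = 0.0601 and 0.0512), and *FGL2* in the pools (edgeR, adjusted p = 0.0958 and 0.0730). Leaving out 1 embryo gave 250 to 419 genes, 2 to 4 list genes, *APOA2* from -4.31 to -3.39, and adjusted p from edgeR of 0.00306 to 0.0130 for *APOC3* and 0.000779 to 0.00399 for *FGL2*.

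Between LB EPI and LB HYPO, 1387 genes were called by DESeq2, 696 by limma, 170 with all 7 groups, and 113 and 64 in the first and last pools. List genes called were 15 by DESeq2, 5 with filterByExpr, 6 by limma, 1 with sums of at least 2 cells, 0 with all 7 groups and 1 in the first pools. Leaving out 1 embryo gave 138 to 294 genes and 1 to 5 list genes. In Sph, 1453 genes were called by DESeq2, 367 by limma, 95 with all 7 groups and 89 in the last pools, and list genes were 14 by DESeq2, 5 with no filter, 7 by limma, 1 with all 7 groups and 7 in the first pools. Leaving out 1 embryo gave 78 to 583 genes and 1 to 6 list genes.

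With the embryo as a replicate block, pairing sums of the same embryo, *APOC3* between ICM and TE was at 11.19 and not called, LB gave 20 genes and 0 list genes, and Sph gave 82 genes.

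With a threshold of 10 TPM, 0% of cells had *APOA2* in Sph EPI, *APOC3* in TE and Sph EPI, *FGL2* in ICM and *HABP2* in LB EPI. Of the 5 most alike genes, log2(CPM + 0.1) kept 2 for *APOA2* and 2 for *FGL2*, and mean log2(TPM + 1) kept 3 for *APOA2*, 3 for *APOC3*, 2 for *FGL2* and 2 for *HABP2*.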
